A study of Mus musculus with 68 samples.

Results

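The mRNA levels of 10 genes linked to Nodal, bone morphogenetic protein (BMP) and Wnt signaling are described here in mouse preimplantation embryos made by somatic cell nuclear transfer (SCNT) and in fertilized blastocysts. The genes are Nodal, Lefty1, Lefty2, Bmp4, Wnt6, Wnt7b, Dkk1, Axin2, Cited1 and Spp1. They were taken by symbol from 24421 annotated genes listed in each of 68 libraries, with 1 row per gene and library. The values are TPM, a transcript level corrected for transcript length and library total. Differences are given as log2 fold changes with their standard error (SE). The first experiment holds 3 libraries of cumulus cells (CCs), the somatic cells that served as nuclear donors, and 53 libraries of SCNT embryos, with BDF1 (B6D2F1) mice as the donors of the oocytes. Enucleated oocytes that had received a CC nucleus were activated with SrCl2 and collected at 6 and 14 hours post activation (hpa), as early and late 2-cell embryos (E2C, L2C), as 4-cell embryos (4C), as 8-cell embryos (8C), as morulae, and as the 2 blastocyst lineages, the inner cell mass (ICM) and the trophectoderm (TE). There were 5 libraries at 4C and 6 at each other SCNT stage or lineage, and all of them are untreated. The second experiment holds 12 libraries from fertilized C57BL/6j embryos injected as zygotes with a morpholino (MO), an antisense oligonucleotide that blocks a transcript, against Max or Mcrs1 or with a random control MO. Each MO has 2 ICM and 2 TE libraries, and the control libraries carry the words control or untreated in their labels, with the control MO named in the injection protocol. The study gives unequal MO concentrations for these libraries, highest for control MO and lowest for Mcrs1 MO, so dose and target differ together. Each reaction took 10 blastomeres, and ICM and TE were separated by micromanipulation, so cells of the other lineage can be present. Oocyte and embryo donors were adult females. The SCNT libraries are described by the study as biologically independent samples and the MO libraries as biological replicates, so the p-values rest on the spread between such samples. Its methods also name 3 Smart-seq2 replicates per stage, and the main fits treat all libraries of a group alike, with no term for a set of replicates.

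Nodal is a secreted ligand of the TGF-beta family that acts with coreceptors of the Cripto family through activin receptors and SMAD2, and it induces its own antagonists Lefty1 and Lefty2. BMP4 signals to targets such as the Id genes through receptors and SMADs that are partly its own and partly shared with Nodal and activin. Wnt ligands bind Frizzled and LRP receptors and stabilize beta-catenin, which switches on feedback inhibitors such as Axin2 and secreted inhibitors such as Dkk1. In the mouse blastocyst, Nodal signaling is known from the epiblast and BMP and Wnt signals from cells of several lineages. Cited1 and Spp1 are neither ligands nor antagonists of these pathways. Cited1 is a transcriptional coregulator that binds CBP/p300 and SMAD4, and Spp1 encodes osteopontin, a secreted phosphoprotein that binds integrins.

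The tables give no read counts, so depth per gene is unknown and no counting interval can be given. The aligned bases, estimated as coverage over FPKM, came to 1.9 to 5.17 gigabases in the SCNT libraries and 1 to 3.19 in the fertilized ones. Of the 680 member values, 308 are listed at 0, and for 243 of these the table holds no estimate at all. None of the 308 had an assembled transcript locus on the same strand. Of 4 widely expressed genes looked at, Rpl3, Tbp and Pgk1 were each below 1 TPM in 1 library, and the glycolysis gene Ldha in 13. Whether these low values are failures of detection was not tested, so a value of 0 is given here only as listed. SCNT ICM replicates 1 to 3 held 6177 to 6771 genes at 1 TPM or more, and replicates 4 to 6 held 9011 to 10032. These sets of replicates also differed elsewhere. In SCNT TE, replicates 1 to 3 had 2.15 to 2.58 gigabases and replicates 4 to 6 had 3.87 to 4.28. At 4C annotated genes took 44 to 53.1% of TPM in replicates 1 to 3, and 75.6 and 73.5% in replicates 4 and 5. The 8 TE markers fixed for the label check (Cdx2, Gata3, Krt7, Krt8, Krt18, Krt19, Elf5 and Hand1) summed to 1926 to 8430 TPM in SCNT ICM and 5107 to 16107 TPM in SCNT TE. In the fertilized libraries they summed to 15125 to 21233 TPM in TE. Control MO ICM replicate 1 stood apart from its label, with a TE marker sum of 16041 TPM and 57.7 TPM of Cdx2, against 347 TPM and 0.222 TPM in control MO ICM replicate 2. Its sum of 7 ICM markers was 793 TPM, against 934 TPM in replicate 2 and 206 to 254 TPM in control MO TE. Member differences that use this library are therefore also given without it. The targeted genes were lower in the matching libraries, and Max also in Mcrs1 MO TE. Max was 6.82 and 0.443 TPM in Max MO ICM against 38 and 8.42 TPM in control MO ICM, and 16.3 and 8.68 TPM in Max MO TE against 34.5 and 28.5 TPM. With Mcrs1 MO, Max was 14.4 and 9.25 TPM in ICM and 17.6 and 15.7 TPM in TE. Mcrs1 was 86.8 and 73.4 TPM in Mcrs1 MO ICM against 253 and 310 TPM, and 41.1 and 45.5 TPM in Mcrs1 MO TE against 219 and 294 TPM.

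Nodal, the ligand, was almost undetected. It lies on chromosome 10 of mm10 from 61417972 to 61425337 on the plus strand, and only 3 of 68 libraries held 1 TPM or more. These were L2C replicate 6 with 2.55 TPM, SCNT morula replicate 4 with 1.71 TPM and Max MO ICM replicate 2 with 3.48 TPM. The highest value among the 12 SCNT ICM and TE libraries was 0.0712 TPM. All 4 control MO libraries were listed at 0, and none of them carried an estimate. At this depth no difference in Nodal between lineages or treatments was detectable.

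Its antagonists Lefty1 and Lefty2 are near-identical neighbors on chromosome 1, from 180935039 to 180938401 and from 180893119 to 180899102 on the plus strand, so reads may be split between them. Lefty1 reached 1 TPM in 5 of 68 libraries. It was 0.644, 3.14 and 0.237 TPM in the 3 CC libraries, and from 0 through a median of 0.433 to 10.3 TPM at L2C, where replicates 1 and 3 held 4.59 and 10.3 TPM. All 12 SCNT ICM and TE libraries and all 4 control MO libraries were listed at 0 for Lefty1. In the ICM of MO embryos 1 library of each treatment held it, with 5.07 TPM in Max MO replicate 1 and 6.93 TPM in Mcrs1 MO replicate 2, while the other library of each was listed at 0. Lefty2 reached 1 TPM in 2 libraries, with 2.81 TPM in L2C replicate 3 and 2.73 TPM in Mcrs1 MO ICM replicate 2, the same libraries that held the highest Lefty1 values of their groups. These single libraries give no replicated difference.

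The partners of Nodal were better detected than Nodal itself. Of the 8 other ligands, processing enzymes and coreceptors of the Nodal and activin branch, 4 passed the filter of a mean of at least 1 TPM in the SCNT libraries. Tdgf1, which encodes the coreceptor Cripto, ranged from 0.469 through a median of 213 to 455 TPM in SCNT ICM and from 3.3 through 18.2 to 109 TPM in SCNT TE. The Tdgf1 groups overlapped, and the difference did not pass the threshold of at least 2-fold and an adjusted p under 0.05 in limma. Cfc1, which encodes the coreceptor Cryptic, ranged from 0 through 1.15 to 4.21 TPM in SCNT ICM and from 4.81 through 13.7 to 18.9 TPM in SCNT TE. The Cfc1 groups did not overlap. Cfc1 was lower in ICM than in TE, with a log2 fold change of -2.60 (SE 0.30, adjusted p = 2.6e-08 by limma), a fold change that holds for log2(TPM + 1) and understates changes in low genes. Fitted on the 2 lineages alone, its adjusted p was 0.107.

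Bmp4, the BMP ligand, was near 0 in SCNT embryos and variable in fertilized blastocysts. It lies on chromosome 14 from 46383520 to 46390599 on the minus strand and overlaps Gm15217 on the plus strand, and since the use of strand in counting is not stated, reads of the pair cannot be told apart. Of the 53 SCNT libraries, only L2C replicate 1 with 1.48 TPM and ICM replicate 5 with 2.61 TPM reached 1 TPM. All 6 SCNT morula and all 6 SCNT TE libraries were listed at 0 without an estimate. In fertilized embryos the replicates of 1 group differed as much as the groups did. Control MO ICM held 11 and 0.176 TPM and control MO TE 0 and 18.2 TPM. The difference between control MO ICM and TE was -0.22 on the log2 scale (SE 1.36, adjusted p = 0.946 by limma), and it was -1.90 without control MO ICM replicate 1, 1.45 without ICM replicate 2 and 1.91 without TE replicate 2. The BMP targets were better detected, and 4 of the 6 listed passed the filter in the SCNT libraries.

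As annotated genes, the Wnt ligands Wnt6 and Wnt7b first reached 1 TPM in SCNT embryos at the 8C and morula stages. Wnt6 lies on chromosome 1 from 74771892 to 74785319 on the plus strand. It was at most 0.114 TPM in every CC and SCNT library up to 4C. At 8C it ranged from 0 through a median of 0.902 to 3.01 TPM, and in morulae from 1.19 through 2.22 to 5.85 TPM. The 8C and morula libraries overlapped, and the difference of 0.98 did not pass the test (SE 0.52, adjusted p = 0.226 by limma). Wnt7b lies on chromosome 15 from 85535437 to 85581821 on the minus strand and overlaps AU022754 on the plus strand. Loci assembled over Wnt7b on its strand held 3.44 TPM in E2C replicate 3 and 4.31 TPM in L2C replicate 2. In 4C replicates 3 and 4 they held 4.07 and 3.71 TPM. The annotated gene was at most 0.895 TPM in every CC and SCNT library up to 4C and at most 0.0873 TPM at 8C. It ranged from 0.794 through 2.21 to 6.83 TPM in morulae. Every morula library lay above every 8C library, which held for 9.51% of all genes tested. Wnt7b rose from 8C to morula with a log2 fold change of 1.60 (SE 0.42, adjusted p = 0.00691 by limma). It was the 1 member of 5 tested to pass the threshold of at least 2-fold and an adjusted p under 0.05 at this step, where 12.2% of all 11867 genes tested passed. Without replicate 4 of each stage the change was 1.34 and the adjusted p 0.0519. The median of all genes moved by 0.20 at this step, and with quantile normalization, which removes that shift, the Wnt7b change was 1.30.

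In the SCNT blastocyst Wnt6 was lower in ICM than in TE. The 6 ICM libraries held 0 to 18.4 TPM with a median of 0.846, and the 6 TE libraries 0 to 39.5 TPM with a median of 10.8. The groups overlapped: replicate 3 was listed at 0 in both lineages, and ICM replicate 5 with 18.4 TPM lay above TE replicate 5 with 15.3 TPM. The log2 fold change was -1.80 (SE 0.52, adjusted p = 0.0289 by limma). The call was lost without replicate 1, 4 or 6 (adjusted p = 0.0717, 0.13 and 0.12) and with quantile normalization (log2 fold change -1.13, adjusted p = 0.175). In replicates 4 to 6 alone the change was -2.40 (adjusted p = 0.00838), and in replicates 1 to 3 Wnt6 was below the filter. Wnt7b held 0 to 10.4 TPM with a median of 2.32 in ICM and 0.756 to 15 TPM with a median of 4.65 in TE. Its difference of -1.06 did not pass the test (SE 0.42, adjusted p = 0.141 by limma). ICM replicates 1 to 3 held at most 0.0316 TPM of Wnt7b and replicates 4 to 6 held 4.6, 10.4 and 5.94 TPM, the same division as in the number of genes detected. Relative to the morula, Wnt6 differed by 1.18 in TE (SE 0.52, adjusted p = 0.0951 by limma) and Wnt7b by 0.88 (SE 0.42, adjusted p = 0.129 by limma), and neither passed. In replicates 4 to 6 alone both passed, with 2.29 (adjusted p = 0.00288) and 1.31 (adjusted p = 0.00483), and Wnt6 also passed without replicate 3 (1.74, adjusted p = 0.00765).

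**Figure D1:**
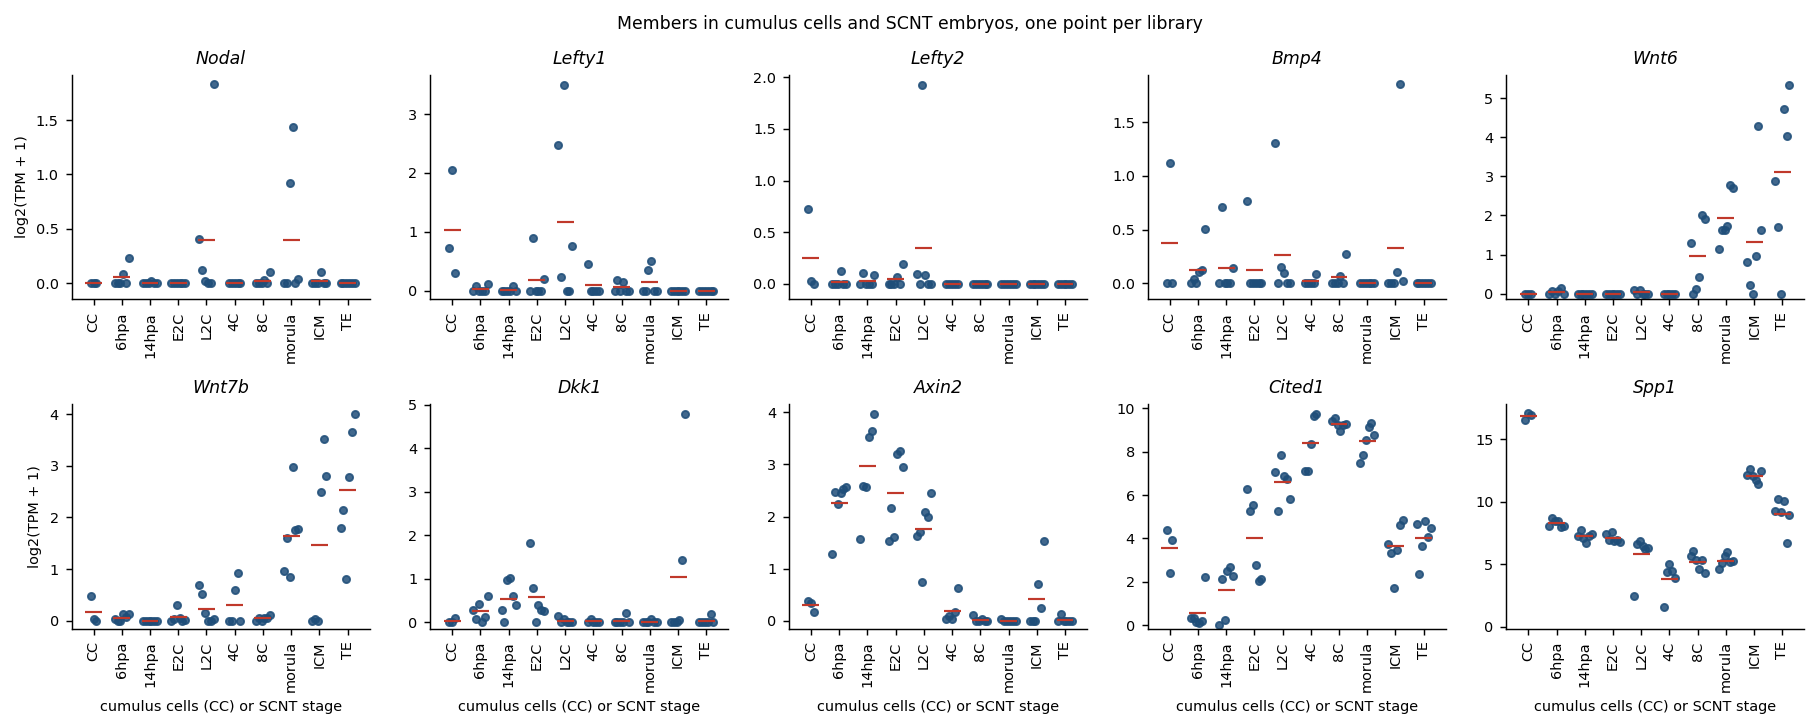
Levels of the 10 genes as log2(TPM + 1), on vertical axes scaled separately for each gene, in 3 CC libraries and in SCNT embryos at each stage or lineage along the horizontal axis. Each point is a library and each red line a group mean. Cited1 is highest at 8C, and Spp1 is highest in CCs and then in SCNT ICM. As annotated genes, Axin2 is seen mainly up to L2C, and Wnt6 and Wnt7b are seen from 8C or morula onward.

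Dkk1, the secreted inhibitor that binds the Wnt coreceptor LRP6, was low in SCNT embryos apart from a single ICM library. It lies on chromosome 19 from 30545885 to 30549496 on the minus strand. It reached at most 2.51 TPM in SCNT embryos up to the morula, in an E2C library. In SCNT ICM replicates 1 to 6 it was 0, 0, 0, 0.0332, 1.69 and 26.5 TPM, and in SCNT TE at most 0.13 TPM. Its mean over the SCNT libraries was under 1 TPM, so it was not tested there. SCNT ICM replicate 6, the library with Dkk1, was also the SCNT ICM library with the highest Sox17, a transcription factor of the primitive endoderm, at 62.3 TPM. Replicate 4 held 9.85 TPM of Sox17 and the other 4 held at most 0.0523 TPM. The sum of 7 primitive endoderm markers (Gata6, Gata4, Sox17, Sox7, Pdgfra, Col4a1 and Lama1) was 114 TPM in replicate 6 and 3.49 to 53.1 TPM in the others. Within it Pdgfra was highest in replicate 6, at 19.5 TPM. Gata6 was 22.4 TPM there, below replicates 4 and 5 with 28.9 and 33.3 TPM, and Gata4 was at most 0.247 TPM in SCNT ICM. The part of the number of such cells in the Dkk1 value was not tested, and in these pooled cells more cells of a type and more RNA per cell cannot be told apart.

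Axin2, the scaffold of the beta-catenin destruction complex and itself a Wnt target, was highest in the first stages of SCNT development. It lies on chromosome 11 from 108920349 to 108950781 on the plus strand. It was 0.123 to 0.295 TPM in CCs, 1.43 to 4.95 TPM at 6 hpa, 1.96 to 14.6 TPM at 14 hpa, 1.89 to 8.54 TPM at E2C and 0.684 to 4.45 TPM at L2C. From 4C onward the annotated gene was at most 0.554 TPM up to the morula, below every library of the earlier embryo stages. The assembled loci overlapped, with 6.15 TPM over Axin2 in 4C replicate 5 against 3.71 TPM in 6 hpa replicate 3. At 14 hpa, replicates 1 to 3 held 1.96 to 5.03 TPM of the annotated gene and replicates 4 to 6 held 10.5 to 14.6 TPM. Loci assembled over Axin2 on its strand did not show this division. They held 20.7, 18.1 and 11.6 TPM in replicates 1 to 3 and 11.8, 42.1 and 14.6 TPM in replicates 4 to 6. As an annotated gene, Axin2 was 0, 0, 0, 0.64, 0.192 and 1.9 TPM in SCNT ICM and at most 0.101 TPM in SCNT TE. Assembled loci held 4.56, 1.79 and 6.55 TPM in ICM replicates 4 to 6. The difference of 0.39 between the lineages in the annotated gene did not pass the test (SE 0.32, adjusted p = 0.591 by limma). In the 12 fertilized libraries the annotated gene stayed between 0 and 1.94 TPM, and assembled loci reached 8.91 TPM in control MO ICM replicate 1.

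Cited1 had its highest group median at 8C and fell between morula and blastocyst in SCNT embryos. It lies on chromosome X from 102247378 to 102252181 on the minus strand. CCs held 19.9, 4.27 and 14.1 TPM, the 6 hpa embryos 0.0819 to 3.64 TPM and the 14 hpa embryos 0 to 5.47 TPM. At E2C the libraries fell apart, with 77.2, 37.1 and 45.5 TPM in replicates 1 to 3 and 5.85, 3.16 and 3.41 TPM in replicates 4 to 6. Cited1 then ranged from 37.9 through a median of 110 to 226 TPM at L2C, from 136 through 328 to 839 TPM at 4C, from 487 through 607 to 738 TPM at 8C and from 174 through 401 to 638 TPM in morulae. Neighboring stages from L2C to morula overlapped. Cited1 did not differ detectably between morula and 8C (log2 fold change -0.76, SE 0.60, adjusted p = 0.461 by limma). In the blastocyst it was 2.26 to 27.9 TPM in ICM and 4.13 to 26.9 TPM in TE, below every morula library. The changes from the morula were -4.87 in ICM (SE 0.60, adjusted p = 1.2e-08 by limma) and -4.50 in TE (SE 0.60, adjusted p = 6.6e-08 by limma). Between the lineages it differed by -0.37, with a standard error of 0.60 (limma adjusted p = 0.875).

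Spp1 took the highest values of the 10 genes, and in SCNT embryos it rose between morula and blastocyst, more in ICM than in TE. It lies on chromosome 5 from 104435111 to 104441053 on the plus strand. The 3 CC libraries held 97817, 137886 and 129077 TPM. In SCNT embryos Spp1 was 255 to 426 TPM at 6 hpa, 106 to 208 TPM at 14 hpa and 107 to 192 TPM at E2C. The source of these transcripts was not tested. The sum of 7 cumulus markers (Has2, Ptgs2, Tnfaip6, Ptx3, Amh, Fshr and Foxl2) went from 1118 to 1330 TPM in CCs to 2.7 to 13.1 TPM at 6 hpa. Spp1 then ranged from 4.37 through a median of 82.7 to 114 TPM at L2C, from 1.98 through 19.4 to 31.6 TPM at 4C, from 19 through 39.9 to 65.2 TPM at 8C and from 23 through 36.3 to 60.9 TPM in morulae. Morula and 8C overlapped and differed by 0.08 (SE 0.49, adjusted p = 0.977 by limma), a value that was -0.20 with quantile normalization. The 6 SCNT ICM libraries held 4460, 6417, 4257, 3528, 2816 and 5616 TPM, and the 6 TE libraries 616, 1179, 571, 1088, 104 and 480 TPM. Every ICM library lay above every TE library, which held for 1.04% of all genes tested, and every TE library above every morula library. Spp1 rose from morula to ICM by 6.79 (SE 0.49, adjusted p = 9.1e-16 by limma) and from morula to TE by 3.76 (SE 0.49, adjusted p = 3.5e-08 by limma). It was higher in ICM than in TE by 3.03 (SE 0.49, adjusted p = 4.2e-05 by limma), with 2.73 in replicates 1 to 3 (adjusted p = 0.0317) and 3.33 in replicates 4 to 6 (adjusted p = 2.0e-04). Cumulus markers summed to at most 0.169 TPM in the SCNT ICM and TE libraries, so the defining genes of CCs were near 0 there.

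**Figure D2:**
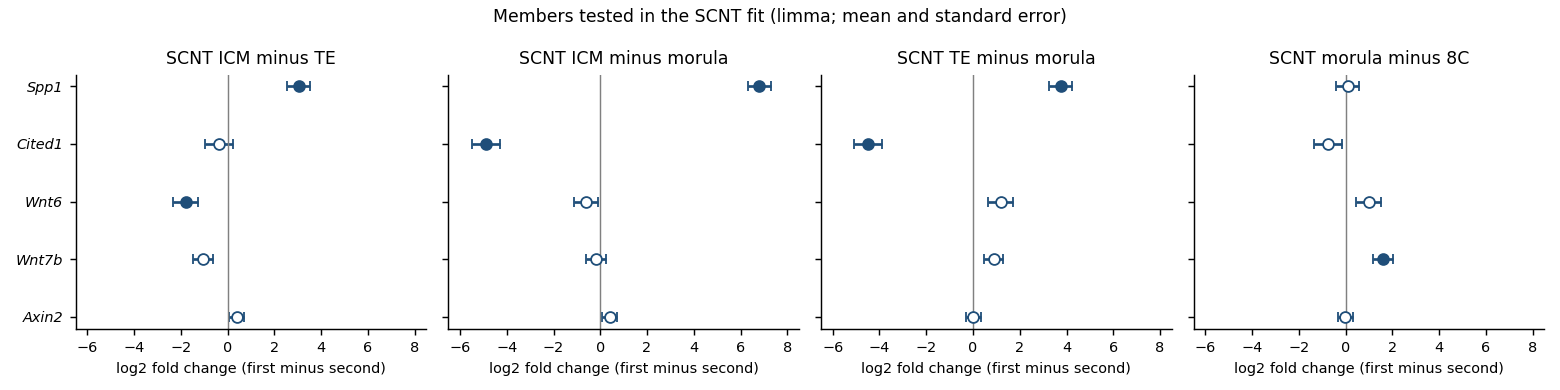
Log2 fold changes of log2(TPM + 1) with standard errors (horizontal axis) for the 5 genes that passed the filter in the SCNT libraries (vertical axis), in 4 comparisons. Filled points passed the threshold and open points did not; Spp1 lies at 3.03, 6.79 and 3.76 in the comparisons with blastocyst lineages and at 0.08 between morula and 8C.

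Only 5 of the 10 genes passed the filter in the SCNT libraries, so the counts of members are a description. In ICM against TE, 2 of 5 passed (Spp1 higher, Wnt6 lower), where 5.34% of 11867 genes did. In ICM against morula, 2 of 5 passed, where 24.0% of genes did, and in TE against morula, 2 of 5 passed, where 21.8% did. In both comparisons the pair was Spp1 and Cited1, whose libraries also did not overlap, as for 9.98% of genes in ICM and 13.6% in TE. The median change of the 5 was -0.37 in ICM against TE, where the median of all genes was -0.08. It was -0.18 in ICM against morula and 0.88 in TE against morula, where all genes had medians of -0.16 and -0.03.

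A list of 115 other genes of the 3 pathways, grouped by role, was read in the same fits, and 51 of them passed the filter in the SCNT libraries. In SCNT ICM against TE, 4 of the 51 passed the threshold (7.84%, beside 5.34% of all genes), 2 higher and 2 lower, with a median of 0.01. Besides Cfc1 these were Acvr2b, an activin type II receptor (-2.57), Id3, a BMP target (2.68), and Sfrp1, a secreted Wnt inhibitor (1.69), which are named because the count was small, after their values were seen. With TPM rescaled over annotated genes 3 passed, 1 higher and 2 lower, without replicate 3 of each lineage 7 passed, without replicate 4 or 6 none of those passing was higher in ICM, and fitted on the 2 lineages alone none passed, with 13 of the 51 at an unadjusted limma p under 0.05 in the fit of all stages. In ICM against morula 13 passed (25.5%, beside 24.0%), 8 higher and 5 lower, and with quantile normalization 11 were higher and 3 lower. In TE against morula 12 passed (23.5%, beside 21.8%), 7 higher and 5 lower.

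Of the 6 BMP targets listed 4 were tested, and 3 passed in ICM and 4 in TE against morula, where 24.0% and 21.8% of all genes passed. Of the 4 Nodal targets listed only Eomes was tested. Id2, an inhibitor of bHLH factors, went from 2.11 to 47 TPM in morulae to 162 to 532 TPM in ICM and 341 to 1089 TPM in TE. Its changes were 4.36 in ICM (SE 0.54, adjusted p = 1.4e-08 by limma) and 5.65 in TE (SE 0.54, adjusted p = 9.9e-12 by limma). Eomes, a T-box factor of the trophoblast that is also a Nodal target, rose by 3.13 in ICM (SE 0.24, adjusted p = 4.4e-15 by limma) and 3.59 in TE (SE 0.24, adjusted p = 3.9e-17 by limma). Msx2 rose by 3.81 in TE (SE 0.52, adjusted p = 1.0e-07 by limma), and Id3 fell there, with a log2 fold change of -3.58 (SE 0.81, adjusted p = 5.9e-04 by limma). Of the 4 BMP targets tested, 2 were higher and 2 lower in TE than in morula, so the list had no single direction. Gsk3b, the kinase of the beta-catenin destruction complex, rose by 1.78 in ICM (SE 0.37, adjusted p = 2.2e-04 by limma), and by 0.89 in replicates 4 to 6 alone, under 2-fold. From 8C to morula 3 of the 51 passed (5.88%, beside 12.2%), 2 higher (Acvr2b and Porcn, a Wnt acyltransferase) and 1 lower (Axin1), with 1 higher and 1 lower after rescaling over annotated genes and 2 of each after quantile normalization. Without replicate 2 of each stage 1 passed.

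In fertilized control MO blastocysts, Spp1 was higher in ICM than in TE, as in SCNT blastocysts. Both control MO ICM libraries lay below every SCNT ICM library, the lowest of which held 2816 TPM. The TE libraries of the experiments overlapped, since SCNT TE replicate 5 held 104 TPM. Control MO ICM held 1490 and 1974 TPM and control MO TE 22.2 and 147 TPM. The log2 fold change was 4.87 (SE 0.84, adjusted p = 0.0238 by limma). The ICM library with TE markers held 1490 TPM, and without it the change was 5.07. Without control MO TE replicate 1 the change was 3.53 and the adjusted p 0.155, and fitted on the control groups alone it did not pass either. Spp1 was the 1 member of 7 tested that passed, where 2.92% of 11219 genes did. Its ICM and TE libraries did not overlap, like those of 43.6% of genes. The experiments differ in strain, embryo type and library set, so the lower level in ICM cannot be told apart from these.

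Wnt6 was 34 and 21.1 TPM in control MO ICM and 29.8 and 40.4 TPM in control MO TE. The difference of -0.36 did not pass the test (SE 0.50, adjusted p = 0.717 by limma), nor did that of -0.69 without control MO ICM replicate 1 (adjusted p = 0.412). Control MO ICM replicate 2, with a TE marker sum of 347 TPM, held 21.1 TPM of Wnt6. Wnt7b was 33.6 and 0.133 TPM in control MO ICM and 45.5 and 45.2 TPM in TE. The high ICM value came from replicate 1, the library with TE markers. With both ICM libraries the difference was -2.89 (SE 1.15, adjusted p = 0.173 by limma), and it did not pass. Without replicate 1 the Wnt7b difference was -5.35, a value that rests on 1 ICM library. Replicate 1 was set apart by TE markers such as Cdx2, whose pattern over the groups was most like that of Wnt7b. Leaving it out therefore favors a larger difference, and nothing is concluded from that value. Cited1 was at most 1.46 TPM in the 4 control MO libraries, and Dkk1 at most 0.572 TPM.

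Of the other pathway genes, 54 passed the filter in the fertilized libraries, and 4 (7.41%, beside 2.92% of all genes) were higher and none lower in control MO ICM than in TE. They were Fzd4, a Frizzled receptor (log2 fold change 3.57, SE 0.78, adjusted p = 0.0392 by limma), Gdf3, a ligand of the Nodal branch (3.16, SE 0.43, adjusted p = 0.0129 by limma), Foxh1, the DNA-binding partner of SMAD2 (3.15, SE 0.56, adjusted p = 0.026 by limma), and Sfrp1 (3.03, SE 0.58, adjusted p = 0.0299 by limma). The median of the 54 was -0.12, where that of all genes was -0.01. Without control MO ICM replicate 1 the count was 16, with 8 higher and 8 lower, and it was 0 without control MO TE replicate 1 and 2 without control MO TE replicate 2. In these fits a lone library is assumed to vary like those of the other groups.

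The MO comparisons of the 10 genes are given as a description without p-values, because Dkk1, Spp1 and Cited1 were known as leading genes of these comparisons when the list was made. The Max MO and Mcrs1 MO comparisons share the control MO libraries, and the MO concentrations differed. Cited1 had the plainest pattern. It was 0 and 1.46 TPM in control MO ICM, 11 and 17 TPM in Max MO ICM and 17.9 and 8.49 TPM in Mcrs1 MO ICM. In TE it was 0.382 and 1.23 TPM with control MO, 19.7 and 22.4 TPM with Max MO and 18.9 and 24.6 TPM with Mcrs1 MO. All 8 MO libraries lay above all 4 control libraries. The log2 differences from control MO were 3.23 and 3.09 in ICM and 3.65 and 3.68 in TE for Max and Mcrs1. The ICM differences were 2.58 and 2.44 without control MO ICM replicate 1. The levels with Max or Mcrs1 MO lay within the range of the SCNT blastocysts, 2.26 to 27.9 TPM.

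**Figure D3:**
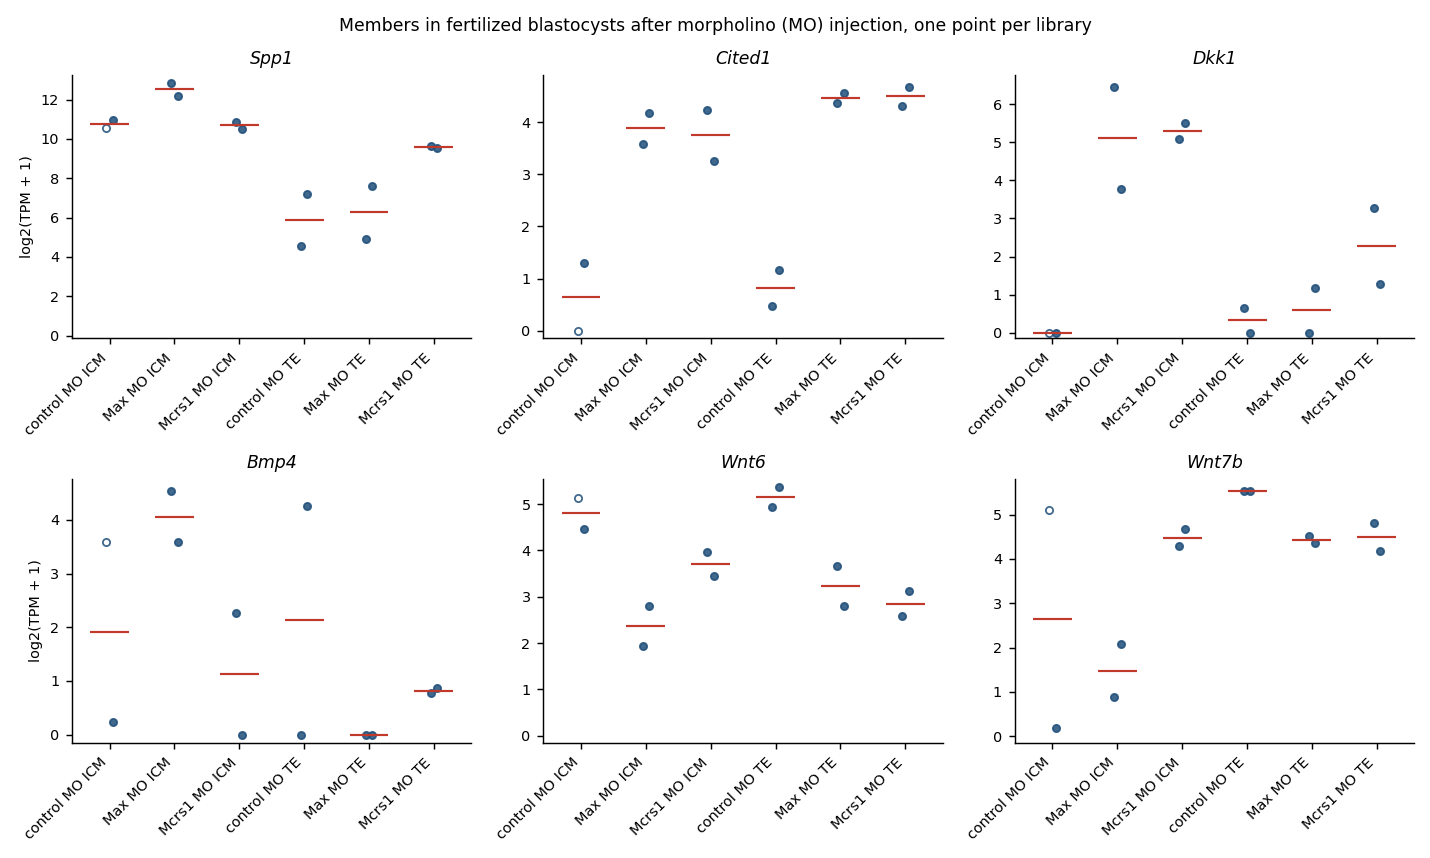
Levels as log2(TPM + 1) of 6 genes, on vertical axes scaled separately for each gene, by MO and lineage of the fertilized blastocysts (horizontal axis). Points are single libraries, red lines are means of 2 libraries, and the open point is control MO ICM replicate 1; all MO libraries exceed the controls in Cited1, and Dkk1 is high in the 4 MO ICM libraries.

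Dkk1 was listed at 0 without an estimate in both control MO ICM libraries, so no fold is given. It was 86.5 and 12.7 TPM in Max MO ICM and 32.7 and 44.5 TPM in Mcrs1 MO ICM. In TE it was 0.572 and 0 TPM with control MO, 0 and 1.26 TPM with Max MO and 8.69 and 1.42 TPM with Mcrs1 MO. The 4 MO ICM libraries lay above all TE libraries. Sox17 was 178 and 32.5 TPM in Max MO ICM, 38.2 and 22.5 TPM in Mcrs1 MO ICM and at most 0.133 TPM in the control MO libraries. Gata4 was also higher, at 26.1 and 2.52 TPM and 6.99 and 14.7 TPM against 0 and 0.0808 TPM in control MO ICM. Gata6 was similar, at 31.9 and 28.7 TPM and 29.6 and 26.9 TPM against 30.5 and 21.8 TPM. Pdgfra overlapped, at 27.6 and 12.8 TPM and 11.4 and 15.9 TPM against 5.29 and 12.9 TPM. In TE, Sox17 was 17.8 TPM in Max MO replicate 2 and 10.1 TPM in Mcrs1 MO replicate 1, the libraries with the higher Dkk1 of their groups. All 7 primitive endoderm markers together summed to 112 to 323 TPM in Max MO ICM, 120 to 130 TPM in Mcrs1 MO ICM and 69.4 to 71.5 TPM in control MO ICM. Their part in the Dkk1 values was not tested.

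Wnt6 was lower after either MO. In ICM it was 2.83 and 5.94 TPM with Max MO and 14.6 and 9.93 TPM with Mcrs1 MO, against 34 and 21.1 TPM. In TE it was 11.6 and 5.97 TPM with Max MO and 4.96 and 7.66 TPM with Mcrs1 MO, against 29.8 and 40.4 TPM. No MO library reached the lowest control library of its lineage. The log2 differences were -2.43 and -1.09 in ICM and -1.93 and -2.31 in TE for Max and Mcrs1, and with quantile normalization they were -1.98, -0.81, -1.61 and -1.88. Without control MO ICM replicate 1 the ICM differences were -2.10 and -0.76. The TE marker sums in TE libraries were 19644 and 21233 TPM with Max MO and 15125 and 15590 TPM with Mcrs1 MO, against 20578 and 18416 TPM with control MO. Within that sum Cdx2 was lower, at 22.8 and 30.8 TPM with Max MO and 31.4 and 20.3 TPM with Mcrs1 MO against 68.3 and 54.6 TPM, and Krt8 was higher, at 9192 and 9671 TPM and 6780 and 7001 TPM against 5944 and 5099 TPM. The part of these markers in the Wnt6 and Wnt7b values was not tested. Wnt7b in TE was 21.9 and 19.4 TPM with Max MO and 27.2 and 17.2 TPM with Mcrs1 MO, against 45.5 and 45.2 TPM. In ICM it was 0.834 and 3.22 TPM with Max MO and 18.6 and 24.5 TPM with Mcrs1 MO, against 33.6 and 0.133 TPM. The ICM difference hung on control MO ICM replicate 1: for Max MO it was -1.17 with both control libraries and 1.30 without that library, and for Mcrs1 MO 1.83 and 4.30, with -0.63 without replicate 2 instead. The TE marker sum was 2714 and 5843 TPM in Max MO ICM and 11578 and 8103 TPM in Mcrs1 MO ICM. Among the fertilized ICM libraries, Wnt7b and TE markers were thus high in the same ones. In SCNT ICM this held for replicate 5, with the highest marker sum (8430 TPM) and the highest Wnt7b (10.4 TPM). It did not hold for replicate 1, with a sum of 5604 TPM and Wnt7b at 0, or replicate 6, with the lowest sum (1926 TPM) and 5.94 TPM of Wnt7b.

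**Figure D4:**
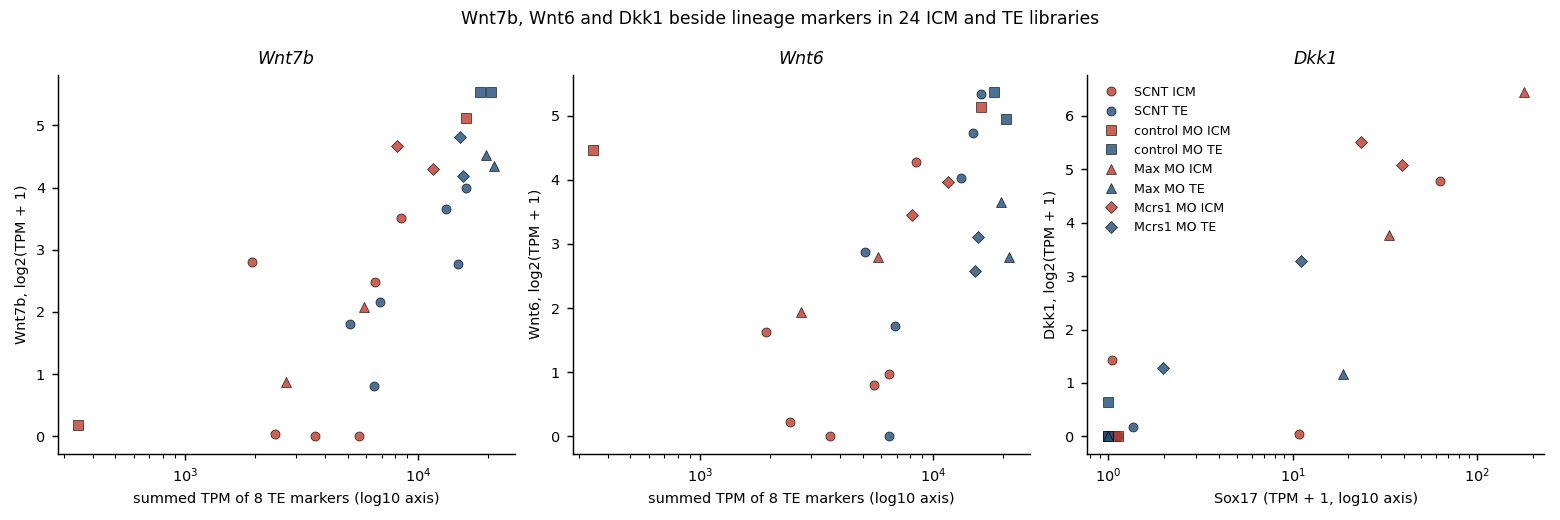
Wnt7b, Wnt6 and Dkk1 as log2(TPM + 1) (vertical axes) in 24 ICM and TE libraries, against the summed TPM of 8 TE markers or against Sox17 TPM + 1 (horizontal log10 axes). Shape gives the embryo group and color the lineage (red ICM, blue TE); control MO ICM replicate 2, with a marker sum of 347 TPM, has 0.133 TPM of Wnt7b but 21.1 TPM of Wnt6, and the 4 fertilized ICM libraries with 12.7 to 86.5 TPM of Dkk1 hold 22.5 to 178 TPM of Sox17.

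Spp1 differed by lineage and MO. In ICM it was 7439 and 4627 TPM with Max MO and 1891 and 1434 TPM with Mcrs1 MO, against 1490 and 1974 TPM. In TE it was 29.5 and 192 TPM with Max MO and 794 and 746 TPM with Mcrs1 MO, against 22.2 and 147 TPM. Max MO libraries lay above the control libraries in ICM and overlapped them in TE, and Mcrs1 MO libraries did the reverse. The log2 differences were 1.77 in ICM and 0.39 in TE for Max, and -0.06 in ICM and 3.71 in TE for Mcrs1. Without control MO ICM replicate 1 the ICM differences were 1.57 and -0.26. The Max MO difference in TE had no stable direction, with -0.95 without control MO TE replicate 1 and 1.72 without control MO TE replicate 2. Whether the responses of the lineages differ was not tested. The sum of 7 ICM markers in TE was 237 and 308 TPM with Mcrs1 MO and 206 and 254 TPM with control MO. For Mcrs1 MO in TE the Spp1 difference was 2.38 without control MO TE replicate 1 and 5.05 without control MO TE replicate 2.

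Bmp4 was 22.2 and 11 TPM in Max MO ICM, 3.79 and 0 TPM in Mcrs1 MO ICM and 11 and 0.176 TPM in control MO ICM. It was listed at 0 in both Max MO TE libraries and was 0.721 and 0.818 TPM in Mcrs1 MO TE, against 0 and 18.2 TPM in control MO TE. The Max MO difference in ICM was 2.15 with a standard error of 1.36, and it was 3.82 without control MO ICM replicate 1 and 0.48 without control MO ICM replicate 2. The Mcrs1 MO difference was -0.78 in ICM and -1.31 in TE, and it turned to 0.90 without control MO ICM replicate 1 and 0.82 without control MO TE replicate 2. The control libraries differed from each other by more than the groups did.

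MAX, with its MYC family partners, is known to bind the E-box CACGTG, so the promoters of the 10 genes were searched for it. RefSeq promoters of GRCm38.p6, 250 bases before to 50 bases after a start, were matched for 7 of the 10 genes, with 10 starts. Lefty1, Lefty2 and Wnt7b had none in the table. The E-box was present in 1 of these 10 promoters, that of Bmp4, with its first base at -188 from the start, and in 7.15% of all 32851 promoters searched. The motifs ATCAAAG or its reverse complement CTTTGAT (TCF/LEF), AATCCACA or TGTGGATT (FOXH1) and GTCTAGAC (SMAD) were in none of the 10, and in 3.73%, 0.855% and 0.213% of all. The 250 bases before the start are shown for Bmp4, which holds the E-box (in capitals), and for Dkk1 and Wnt6, whose Max MO and control MO ICM libraries did not overlap and which do not hold it, 5′ to 3′ on the strand of the gene. They lie at chr14:46390670-46390919 on the minus strand, chr19:30549497-30549746 on the minus strand and chr1:74771642-74771891 on the plus strand. A match describes the letters only.
Bmp4: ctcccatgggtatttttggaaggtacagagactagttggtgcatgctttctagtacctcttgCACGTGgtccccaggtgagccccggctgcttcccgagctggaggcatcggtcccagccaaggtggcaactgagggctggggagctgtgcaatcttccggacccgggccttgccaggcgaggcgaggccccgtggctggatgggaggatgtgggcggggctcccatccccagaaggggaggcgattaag
Dkk1: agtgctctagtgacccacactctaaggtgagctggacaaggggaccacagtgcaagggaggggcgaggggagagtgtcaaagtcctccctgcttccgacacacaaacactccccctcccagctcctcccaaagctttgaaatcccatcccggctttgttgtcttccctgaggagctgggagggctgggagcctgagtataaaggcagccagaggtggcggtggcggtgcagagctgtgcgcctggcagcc
Wnt6: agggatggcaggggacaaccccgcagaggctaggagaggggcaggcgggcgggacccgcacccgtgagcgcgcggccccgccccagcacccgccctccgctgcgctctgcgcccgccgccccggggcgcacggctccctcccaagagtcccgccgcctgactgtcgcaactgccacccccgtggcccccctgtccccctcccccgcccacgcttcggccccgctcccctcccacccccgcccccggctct

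Counted against all genes, the members passed the threshold as follows, and since these comparisons were known when the list was made, nothing is read from the counts. In Max MO ICM, 3 of 7 passed (Cited1, Dkk1, Wnt6) with 23.7% of 11219 genes, and in Max MO TE 1 of 7 (Cited1) with 2.50%. In Mcrs1 MO ICM, 2 of 7 passed (Cited1, Dkk1) with 10.1%, and in Mcrs1 MO TE 3 of 7 (Cited1, Spp1, Wnt6) with 5.08%. Members whose libraries did not overlap those of the control numbered 5 of 7 in Max MO ICM, 3 in Max MO TE, 3 in Mcrs1 MO ICM and 5 in Mcrs1 MO TE, where 56.9%, 57.5%, 49.7% and 62.3% of genes did not overlap. With any 1 of the 4 libraries left out no member passed in Max MO TE, while the Cited1 difference there stayed between 3.30 and 3.99.

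Among the other pathway genes, the share past the threshold was below that of all genes in each MO comparison, so the calls are given as single genes. With Max MO in ICM, 9 of 54 passed (16.7%, beside 23.7% of all genes), 1 higher and 8 lower, and 37 of the 54 had a negative value, with a median of -0.62 where all genes had -0.21. Of the 9 Wnt antagonists tested 3 passed (33.3%), all lower: Sfrp1 and, named to complete the list, Gsk3b and Znrf3. Gsk3b fell by 1.90 on the log2 scale (SE 0.35, adjusted p = 0.00356 by limma). Of the 12 Wnt receptors and transducers tested 3 passed (25%, near the share of all genes), also all lower. Among these was Tcf7l2, a DNA-binding partner of beta-catenin. It held 12.1 and 2.62 TPM against 50.1 and 40.3 TPM as the higher and lower library of each group. Its log2 fold change was -2.74 (SE 0.78, adjusted p = 0.0249 by limma). Acvr2a, an activin and BMP receptor, fell by 2.65 on the log2 scale (SE 0.75, adjusted p = 0.0242 by limma), and Sfrp1 fell by 2.46 (SE 0.58, adjusted p = 0.0116 by limma). Cfc1 rose by 2.29 (SE 0.64, adjusted p = 0.0238 by limma). The count was 12 without control MO ICM replicate 1, 4 and 3 without Max MO ICM replicate 1 and 2, and 3 (1 higher, 2 lower) with quantile normalization, where Tcf7l2 and Acvr2a did not pass (limma adjusted p = 0.0524 and 0.0648).

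With Mcrs1 MO in ICM, 5 of 54 passed (9.26%, beside 10.1% of all genes), 1 higher and 4 lower, with a median of -0.67 where all genes had -0.05. Tcf7l2 fell by 2.99 on the log2 scale (SE 0.78, adjusted p = 0.0349 by limma), Dvl2, which relays the Frizzled signal, fell by 2.63 (SE 0.60, adjusted p = 0.0218 by limma), and Sfrp1 fell by 2.19 (SE 0.58, adjusted p = 0.0365 by limma). Kremen2, a receptor of Dkk1, rose by 2.31 (SE 0.61, adjusted p = 0.0365 by limma), from 0.0893 and 0.298 TPM to 2.95 and 7.79 TPM as the lower and higher library. The count was 17 without control MO ICM replicate 1, 1 without control MO ICM replicate 2, 0 without either Mcrs1 MO library and 2, both lower, with quantile normalization. With Mcrs1 MO in TE only Gsk3b of the 54 passed (1.85%, beside 5.08%), with a log2 fold change of -1.34 (SE 0.35, adjusted p = 0.0448 by limma), and with any 1 of the 4 libraries left out it did not pass, at -1.42 to -1.27. With Max MO in TE none of the 54 passed in limma, 5 were at an unadjusted p under 0.05, and 2 passed when fitted on the compared groups alone. The median was -0.53, where all genes had -0.19.

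The genes whose pattern was most like that of a member were taken by Pearson correlation of mean log2(TPM + 1) over the 16 groups, among 12363 genes, as a description. For Wnt7b they were the TE factor Cdx2 (r = 0.991) and Pak6 (r = 0.981), and for Wnt6 the junction gene Jup (r = 0.985) and Pwwp2b (r = 0.980), all highest in control MO TE. For Dkk1 Rnase12 is given (r = 0.965), and for Bmp4 they were Lrrc56 (r = 0.946) and Myod1 (r = 0.941), all highest in Max MO ICM. For Axin2 they were Map3k6 (r = 0.969) and Klhl32 (r = 0.963), highest at 14 hpa, and for Cited1 2310040G24Rik (r = 0.955) and Srp9 (r = 0.949), highest at 8C. For Spp1 they were Jam2 (r = 0.926) and Sepp1 (r = 0.906), the first highest in CCs and the second in SCNT ICM. For Nodal, Lefty1 and Lefty2, which rest on a few libraries, the highest r were 0.826 (Sftpd), 0.861 (F2r) and 0.901 (Sapcd1).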

How the data were processed

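Smart-seq2 libraries of polyadenylated RNA were analysed from the 68 tables deposited by the authors. Per the labels, reads were trimmed with cutadapt 1.16 and processed on mm10, with HISAT2, StringTie, Cufflinks and deepTools named among the tools. The deposited TPM and coverage values are a signal without read counts, and the FPKM column was used with coverage to estimate aligned bases. In each table the authors' rows mix loci assembled in that library, whose TPM sum to 1000000, with 24421 annotated genes on the same scale, so annotated genes took 30.4 to 94.4% of TPM. Smart-seq2 libraries are amplified and carry no molecular identifiers here. Members were read by gene symbol.

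Differences were fitted with limma 3.58.1 (R 4.3.3; trend, Benjamini-Hochberg adjustment over all genes tested) on log2(TPM + 1), for genes with a mean of at least 1 TPM. The 53 SCNT libraries in 9 groups and the 12 fertilized libraries in 6 groups were fitted separately. Genes were called at 2-fold or more with an adjusted p below 0.05. The study's DESeq2 comparisons need counts and were not repeated. The fit was tested on simulated data. Deviations of SCNT ICM and TE libraries with the same replicate number were weakly correlated (r = 0.131 to 0.3 in 6 of 6 pairs, from the data). The best-matching TE library was number 1, 3, 1, 6, 6 and 6 for ICM replicates 1 to 6. Matches thus stayed within replicates 1 to 3 or 4 to 6 and often had another number, so a pairing by number is not shown. A fit with the replicate number as a block was an alternative. Other alternatives were a pseudocount of 0.1, no filter, a filter of 5 TPM, TPM rescaled over annotated genes, quantile normalization, the compared groups alone, replicates 1 to 3 or 4 to 6 alone, and each replicate left out. Up to 3 other pathway genes per direction were named where past the threshold, without overlap between groups and at 5 TPM or more in 1 group, by size of change. The members, lists and tests were chosen with earlier results of these data known. Promoters came from RefSeq (GRCm38.p6). Python 3.11.15 with pandas 2.3.3 and matplotlib 3.10.9 was used. A 4C library labelled replicate 5 carries another replicate number in its deposited name, and the label was used. Of the genes most like a member, some are not reported here.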

Additional observations from a re-analysis of the deposited data

Results flagged for a closer look

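Groups of a member with a mean of at least 1 TPM were examined on the log2(TPM + 1) scale. Of these 30 groups, 4 held a library far from the rest by Dixon's test, which chance gives in about 1 of 20 groups. SCNT ICM replicate 6 held 26.5 TPM of Dkk1, and the other 5 libraries 0 to 1.69 TPM. This group reached the mean of 1 TPM only through replicate 6, so the chance rate does not hold for it. At 6 hpa replicate 1 held 1.43 TPM of Axin2, and the others 3.71 to 4.95 TPM. Loci assembled over Axin2 on its strand held 10.3 TPM in that library and 3.71 to 21.6 TPM in the others. L2C replicate 1 held 4.37 TPM of Spp1, and the others 74.6 to 114 TPM. SCNT TE replicate 5 held 104 TPM of Spp1, and the others 480 to 1179 TPM.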

How the results depend on the processing

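Of 598 alternative values of 47 tested log2 fold changes, 505 kept their direction and side of the threshold, 72 lost and 4 gained the threshold, and 17 changed direction. Of 299 values of 28 member differences given without a test, 38 moved by more than their standard error and 11 changed direction, all 11 with 1 library left out. The cause was not tested in any case. The tables give no counts, so what depth limits cannot be stated for single genes.

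In SCNT ICM against TE, 1 member instead of 2 passed with a pseudocount of 0.1, without the filter, with a filter of 5 TPM, with quantile normalization, in the compared groups alone and in replicates 1 to 3, and the other pathway genes past the threshold numbered 2 with the pseudocount, 1 with the filter of 5 TPM, 0 in the compared groups alone and 10 in replicates 4 to 6. In TE against morula, 4 members passed in replicates 4 to 6. In morula against 8C, 0 members passed with the filter of 5 TPM and in replicates 1 to 3, and 1, 6 and 8 pathway genes with the filter of 5 TPM, in the compared groups and in replicates 4 to 6. In control MO ICM against TE, 0 members passed without the filter and in the compared groups, and 1 and 0 pathway genes. For Max MO in ICM, 4, 3 and 0 pathway genes passed without the filter, with quantile normalization and in the compared groups, and in TE 2 in the compared groups. For Mcrs1 MO in ICM, 2, 0, 2 and 0 passed with the pseudocount, without the filter, with quantile normalization and in the compared groups, and in TE 0, 0, 0 and 5.

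Leaving out 1 replicate gave 1 to 2 members and 3 to 7 pathway genes in SCNT ICM against TE, 2 and 13 to 16 in ICM against morula, 2 to 3 and 12 to 14 in TE against morula, 0 to 1 and 1 to 4 in morula against 8C, and 0 to 2 and 0 to 16 in control MO ICM against TE. Pathway genes ranged from 3 to 12 for Max MO in ICM, 0 to 17 for Mcrs1 MO in ICM, and were 0 for both in TE. Members ranged from 3 to 4 and 0 to 3 in ICM, and were 0 and 0 to 2 in TE, for Max and Mcrs1 MO.

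Tested values that changed direction were Axin2 in ICM against TE (-0.05) and against morula (-0.01) in replicates 1 to 3, and in TE against morula with 1 replicate left out (-0.01 to 0.03). Wnt7b in ICM against morula was 0.76 in replicates 4 to 6 and, with 1 replicate left out, -0.56 (without 5) to 0.10 (without 2). Spp1 in morula against 8C was -0.03 rescaled, -0.20 with quantile normalization, -0.55 in replicates 1 to 3, and -0.18 to 0.30 with 1 replicate left out, below 0 without replicate 4 (-0.18) or 6 (-0.10). In control MO ICM against TE, Bmp4 was 0.37 with the pseudocount, 0.07 with quantile normalization, and -2.36 to 1.91 with 1 library left out, above 0 without ICM replicate 2 (1.45) or TE replicate 2 (1.91). Cited1 was 0.16 with quantile normalization and -0.81 to 0.49 with 1 library left out, above 0 without ICM replicate 1 (0.49) or TE replicate 2 (0.18). Without a test, the direction changed for Wnt7b, Bmp4 and Spp1 with Mcrs1 MO in ICM, Bmp4 with Mcrs1 MO in TE, Wnt7b with Max MO in ICM, and Dkk1 and Spp1 with Max MO in TE.

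With the replicate block, 5 instead of 4 pathway genes passed in SCNT ICM against TE, and no call of a member changed. As in ICM against TE, the samples of the other comparisons are known to share only a replicate number. There r was -0.229 to 0.236 between same-numbered SCNT libraries and -0.0383 to 0.128 between fertilized ones. The block gave 5 pathway genes in control MO ICM against TE and 4 in morula against 8C. It gave 9 and 0 for Max MO in ICM and TE, and 4 and 1 for Mcrs1 MO.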
